A study of Homo sapiens with 6 samples.

Results

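Signaling by transforming growth factor beta (TGF-beta), bone morphogenetic proteins and activins was followed in Hep3B cells through 47 genes of the 23406 features in the deposited tables. The 47 were taken by symbol from a named list: 11 ligands, 4 latent TGF-beta binding proteins, 10 receptors and co-receptors, 6 receptor-regulated or common SMADs, 11 inhibitors and 5 target genes. Of these, 44 had enough counts to be tested. The other 3 were the ligand BMP7, the co-receptor ENG and the target PMEPA1. BMP7 lay between 0.123 and 0.918 CPM (counts scaled to library size) and ENG between 0.131 and 0.674 CPM. PMEPA1 had 0 counts in all 6 libraries, where a count of 0 allows up to 3 counts, or 0.184 to 0.195 CPM (counting error only).

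Ligands of this family are made as precursors, and latent TGF-beta binding proteins hold TGF-beta in the matrix until it is released. A released ligand joins type I and type II receptors into a complex, in which the type I receptor phosphorylates SMAD proteins. TGF-beta and activin act mainly through SMAD2 and SMAD3, and bone morphogenetic proteins (BMPs) through SMAD1, SMAD5 and SMAD9. SMAD4 joins either set, and the complexes regulate genes that include the pathway's own inhibitors SMAD6 and SMAD7. In the liver, BMP6 regulates hepcidin, and TGF-beta is known for growth arrest of hepatocytes and for epithelial-mesenchymal transition.

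Hep3B is a human hepatocellular carcinoma line. It was transduced with lentivirus for the shControl hairpin or for a hairpin that targets nucleoredoxin (shNXN) and selected in puromycin. Total RNA was collected on days 7, 9 and 11, which gave 1 library for each group and day and 3 libraries for each group. The labels give the genotypes as WT and NXN knockdown. They do not say that the days came from separate cultures, or that more than 1 shRNA sequence was used, so p-values measure the spread between these libraries, which carry the day with them. The comparison asks which genes differ after loss of NXN.

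The estimated counts summed to between 15349382 and 16332589 per library. NXN itself was at 181, 138 and 143 CPM in the shControl cells of days 7, 9 and 11 and at 42.7, 47.5 and 39.5 CPM in the shNXN cells. The groups did not overlap, and the log2 fold change was -1.83 (SE 0.16, edgeR quasi-likelihood adjusted p = 0.0378 over all features). A two-sided exact permutation test of this single gene gave p = 0.1, the smallest that 3 against 3 libraries allow. All 14 hepatocyte and hepatocellular carcinoma markers passed the filter, but their summed level was lower in shNXN cells on days 7 and 9. It was 23402, 28261 and 20869 CPM in shControl cells on days 7, 9 and 11 and 14480, 13187 and 22713 CPM in shNXN cells. On those days 8, 9 and 4 of the 14 were lower in shNXN cells. In the shControl cells of days 7 and 9, ALB and APOB were the most abundant of the 14 and weigh most in this sum. APOB was at 4006, 4426 and 1603 CPM in shControl and 1759, 1496 and 1975 CPM in shNXN cells. ALB (albumin) was at 9566, 13655 and 6955 CPM in shControl and 1420.3, 683 and 7249.6 CPM in shNXN cells, and AFP (alpha-fetoprotein) at 1426, 1278 and 1083 and 444, 301 and 1056 CPM, without passing the test (edgeR adjusted p = 0.186 and 0.138, with the block 0.102 and 0.0724). Other markers of the 14 went the other way. SERPINA1 was at 1367, 1387 and 1226 CPM in shControl and 2073, 1541 and 1801 CPM in shNXN cells, without overlap. HNF4A was at 302, 391 and 219 CPM and 396, 533 and 312 CPM. Their edgeR adjusted p values were 0.0959 and 0.271, and 0.0572 and 0.0317 with the block. The part of these shifts in the results on the 47 genes was not tested. VWF, KDR, CD3E, THY1 and DES were at 0 in every library, and of the fibroblast, endothelial and leukocyte markers only COL1A1, PDGFRB, CD14 and CD68 passed.

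A trend with base composition ran through the whole comparison. Over 12740 tested features with a known transcript, the log2 fold change between the groups correlated with transcript GC content (rho 0.789 by Spearman across genes, which are not independent replicates). Over the 44 tested members the same coefficient was 0.724. Within days 7, 9 and 11 it was 0.743, 0.676 and 0.726 over all features and 0.719, 0.697 and 0.618 over the members. Features with at most 41.9% GC had a median log2 difference of -1.12, -1.16 and -0.73 on these days. For these features the median difference was therefore smallest in size on day 11. The group differences of the members named in detail are therefore given also after a smooth GC trend was taken out of every library, together with the day as a block. The offset takes out any difference that follows GC content, whatever its source, and the part of that trend in each result was not tested beyond these values. GC content was read from the longest annotated transcript of a gene, which can differ from the form expressed. For SMAD2 that transcript has 34526 bases, where the deposited values imply 1.80 kb in shControl and 1.18 kb in shNXN cells. For SMAD4 it has 8769 bases, against 1.49 and 1.15 kb.

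In the comparison of all shNXN with all shControl libraries, 1 of the 44 tested members passed an adjusted p of 0.05, the activin type II receptor ACVR2A, which was lower. Over all 14071 tested features 3.21% were lower and 0.185% higher by this rule. With the replicate number as a block, which pairs the libraries of a day, 12 members passed, 10 lower (22.7%) and 2 higher (4.55%). The background shares were 17% lower and 6.28% higher, so the share of members called was near that of all features. The 10 lower members were TGFB2, INHBA, TGFBR1, BMPR1A, BMPR2, ACVR2A, SMAD2, SMAD5, SMURF2 and SKIL, and the 2 higher were INHBE and FSTL3. After the block and the GC offset 0 members passed (edgeR, smallest adjusted p = 0.0562), against 0.924% of all features in both directions. With the GC offset and no block, edgeR also called 0 of the 44 members, and 7 had an unadjusted p under 0.05. Of all 14071 features 5 were called in that fit, and 2409 had an unadjusted p under 0.05. Without the shNXN library of day 11 and without a block, edgeR called 13 members, 10 lower and 3 higher. Of all features 21.4% were then lower and 4.4% higher. Without any 1 of the other 5 libraries it called 0 members. Of all features it called 1.69% lower and 0.0419% higher without the shControl library of day 9, and 0 without any of the rest of these 5.

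Counted without a model, the 3 shNXN values lay below all 3 shControl values for 9 members (20.5%; background 21.5%) and above them for 9 members (20.5%; background 19%). The remaining 26 overlapped. On each of the 3 days 16 members were lower and 14 higher in shNXN cells, and 14 changed sign between days. The median log2 fold change was 0.07 over the tested members and 0.03 over all features. The longest transcripts of the 10 members called lower held 33.4% to 40.6% GC, with a median of 38.9%. The median of all tested features was 48.4%.

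**Figure D1:**
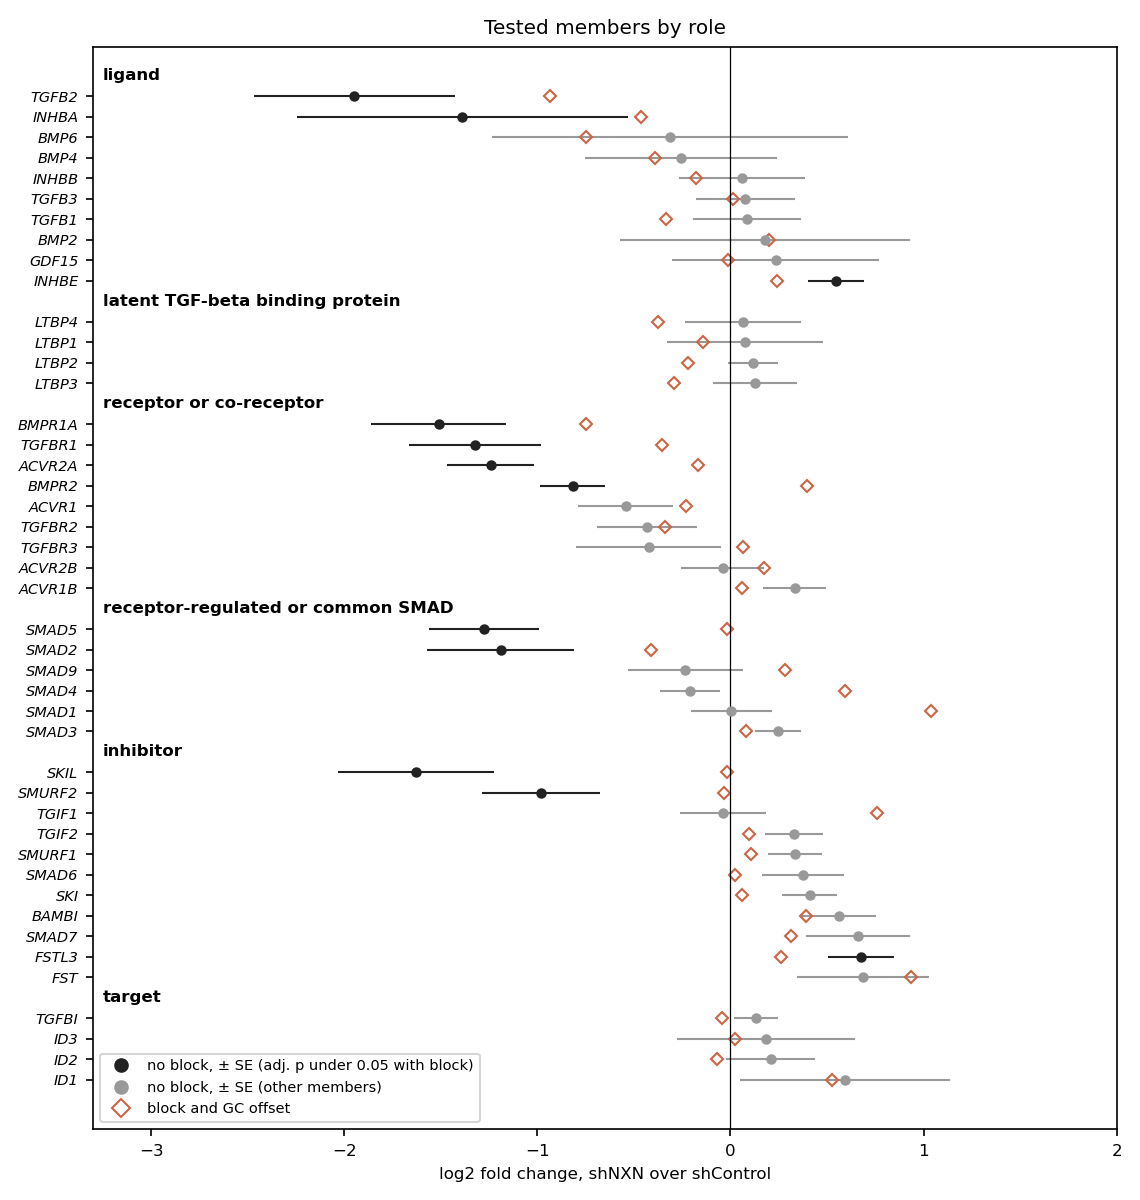
Log2 fold change (shNXN over shControl) of the 44 tested members, ordered by role. Circles with bars are the fit without a block with its SE, black where the fit with the replicate block gave an adjusted p under 0.05, and open diamonds are the fit with block and GC offset. The black points on the left lie between -0.82 and -1.95, and their diamonds between -0.94 and 0.40.

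**Figure D2:**
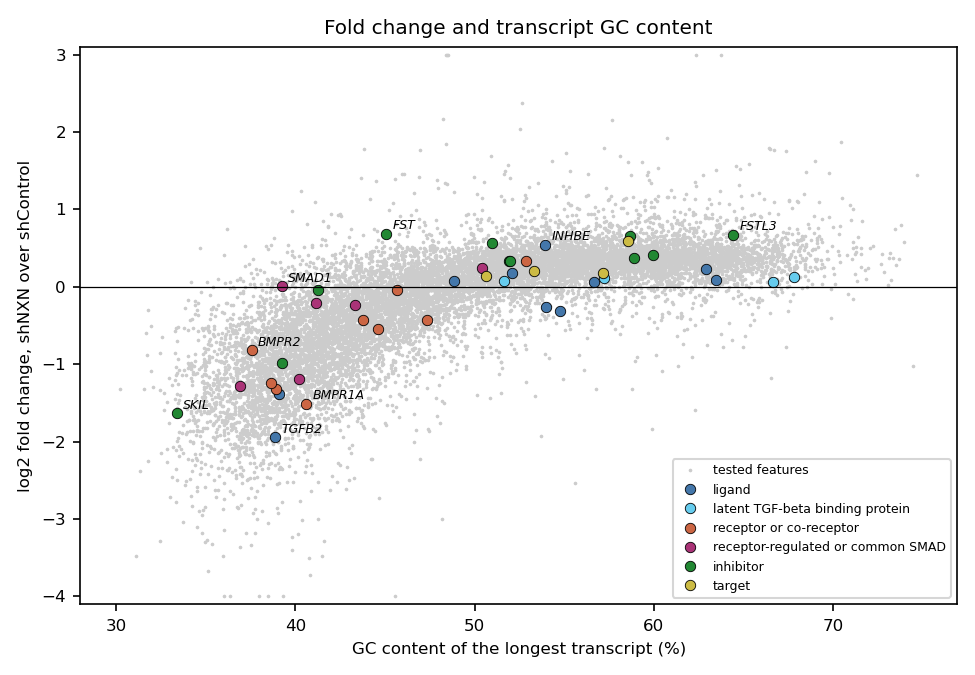
Log2 fold change without a block against the GC content of the longest transcript (%), for all tested features (grey) and for members coloured by role. A few features beyond the axis are drawn at its edge. The 10 members called lower with the block fill the lower left, SMAD1 lies apart at 0.0046, and the GC-rich members on the right lie between -0.31 (BMP6) and 0.67 (FSTL3).

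Among the ligands, TGFB2, which codes for TGF-beta 2, had the largest difference. It was at 24.1, 14.2 and 38.4 CPM in the shControl libraries of days 7, 9 and 11 and at 4.02, 4.47 and 11.4 CPM in the shNXN libraries. The 3 shNXN values all lay under the 3 shControl values, with a log2 fold change of -1.95 (SE 0.52; edgeR adjusted p = 0.0710 without and 0.0150 with the block). With block and GC offset it was -0.94 (edgeR adjusted p = 0.106).

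TGFB1, the ligand most studied in liver fibrosis, did not pass the test. Its levels were 179, 168 and 265 CPM in shControl and 165, 181 and 304 CPM in shNXN cells. The groups overlapped, and the log2 fold change of 0.09 (SE 0.28, edgeR adjusted p = 0.843) became -0.33 with block and GC offset. TGFB3, the remaining isoform, was at 0.08 without and 0.02 with them.

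INHBE codes for inhibin beta E, an activin subunit made mainly by hepatocytes. In shControl cells it was steady, at 104, 105 and 100.05 CPM, and in shNXN cells it was at 144, 175 and 133 CPM. It was higher on every day with no overlap, by 0.55 (SE 0.14), and passed with the block (edgeR adjusted p = 0.0339) but not without it (0.0697). With block and GC offset the value was 0.24 (edgeR adjusted p = 0.271). INHBA, the activin beta A subunit, was scarce, at 1.84, 0.369 and 2.76 CPM against 0.609, 0.123 and 1.16 CPM, the lowest of these being 2 counts. Its groups overlapped across days, while the difference within each day was -1.42, -0.997 and -1.17, and the block gave an edgeR adjusted p of 0.0426 where the fit without it gave 0.283. With block and GC offset the log2 fold change was -0.46 (edgeR adjusted p = 0.503). Without a block it was -1.39 (SE 0.86), and it was -0.75 without the shControl library of day 11 and -0.90 without the shNXN library of day 9, and -2.15 without the shNXN library of day 11.

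None of the other 7 tested ligands passed with or without the block. Levels of the BMP genes differed between days. BMP2 was at 99.0, 13.4 and 28.95 CPM in shControl and 93.8, 27.9 and 38.1 CPM in shNXN cells, high on day 7 in both. BMP6 was at 2.43, 3.57 and 14.1 and 1.95, 1.90 and 12.4 CPM, high on day 11 in both. BMP4 was at 35.6, 13.1 and 10.2 CPM and 22.2, 15.7 and 11.5 CPM, with its lowest level in each group on day 11. GDF15, a stress-induced ligand of the family, was at 695, 261 and 1148 CPM in shControl and 1055, 436 and 984 CPM in shNXN cells. Its lowest level was on day 9 in both groups. The log2 fold changes of BMP2, BMP4, BMP6, GDF15 and INHBB were 0.18, -0.26, -0.31, 0.23 and 0.06. With block and GC offset they were 0.20, -0.39, -0.75, -0.01 and -0.18.

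Per length, GDF15 was the most abundant ligand, at 781 ± 517 FPKM in shControl and 931 ± 378 FPKM in shNXN cells (mean and SD, n = 3; FPKM divides fragments by transcript length and by library size). TGFB1 followed at 83.2 ± 21.7 FPKM in shControl cells, then INHBE at 57.1 ± 4.89 and INHBB, the activin beta B subunit, at 50.5 ± 25.4 FPKM. The intervals of 1 SD of GDF15 and TGFB1 did not overlap, whereas those of TGFB1, INHBE and INHBB did. BMP4 and BMP2 had 15.2 ± 10.5 and 14.1 ± 13.5 FPKM, also within their spread, and TGFB2 had 8.76 ± 2.19 FPKM.

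None of the 4 latent TGF-beta binding proteins passed. Their log2 fold changes were 0.08 for LTBP1, 0.12 for LTBP2, 0.13 for LTBP3 and 0.07 for LTBP4, and with block and GC offset -0.14, -0.22, -0.29 and -0.38. The smallest edgeR adjusted p with the block was 0.405. LTBP1, a carrier of latent TGF-beta 1, was at 107, 134 and 250.02 CPM in shControl and 118, 137 and 263 CPM in shNXN cells, highest on day 11 in each.

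The levels of BMP2, BMP6, LTBP1 and TGFB1 over days, singled out after their values were seen, peaked on the same day in the 2 groups. A test of the day, with the group in the model, passed for 0 members and 0 of all features in edgeR, where 13 members and 21.4% of all features had an unadjusted p under 0.05. The smallest adjusted p among the members was 0.106. DESeq2's likelihood ratio test of the day, added after seeing the data, called 10 members and 1378 features, so whether members change with the day depends on the tool.

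**Figure D3:**
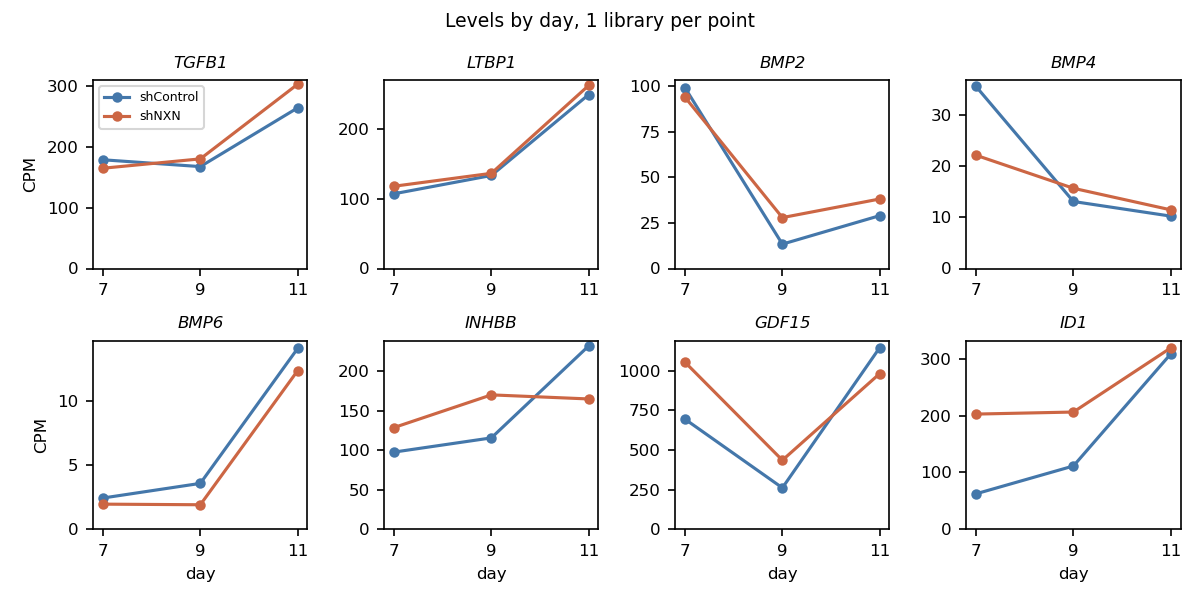
CPM of 8 members by day, 1 library per point, blue for shControl and orange for shNXN, each axis starting at 0. BMP2 is highest on day 7 and BMP6 and LTBP1 on day 11 in both groups, while ID1 is at 62.3, 111 and 309 CPM in shControl and 203, 207 and 319.9 CPM in shNXN cells.

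Of the 9 tested receptors, 4 were lower with the block and none was higher (background 17% and 6.28%). They were the type I receptors TGFBR1 and BMPR1A and the type II receptors BMPR2 and ACVR2A. Their shNXN and shControl values did not overlap (background 21.5% lower). The 4 transcripts held between 37.6% and 40.6% GC.

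TGFBR1, the type I receptor for TGF-beta, was at 25.1, 29.3 and 30.8 CPM in shControl and 10.5, 6.56 and 17.01 CPM in shNXN cells. Its log2 fold change was -1.32 (SE 0.34; edgeR adjusted p = 0.0678 without and 0.0301 with the block), and -0.35 with block and GC offset. BMPR1A, a type I receptor for BMPs, was at 45.6, 56.7 and 48.2 CPM and 13.5, 11.3 and 28.04 CPM. The day 11 shNXN library was the highest of its group for both genes. For BMPR1A the log2 fold change of -1.51 (SE 0.35; edgeR adjusted p = 0.0584 without and 0.0289 with the block) was -0.75 with block and GC offset.

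ACVR2A, a type II receptor that binds activins and some BMPs, was at 29.04, 24.98 and 24.1 CPM in shControl and 11.6, 8.40 and 13.1 CPM in shNXN cells. The groups did not overlap, and the log2 fold change was -1.24 (SE 0.22; edgeR adjusted p = 0.0455 without and 0.0195 with the block). The value was -0.17 with block and GC offset (edgeR adjusted p = 0.568). Leaving out the shControl library of any day, or the shNXN library of day 7 or 9, ended the call without the block. The log2 fold changes were then between -1.27 and -1.08. Of all features these fits called 0, except for 1.69% lower and 0.0419% higher without the shControl library of day 9. Leaving out the shNXN library of day 11 did not end the call.

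BMPR2, the type II BMP receptor mutated in heritable pulmonary hypertension, turned with the offset. Its levels were 60.5, 63.7 and 77.04 CPM in shControl and 40.7, 33.2 and 40.3 CPM in shNXN cells, without overlap. The log2 fold change was -0.82 (SE 0.17; edgeR adjusted p = 0.0503 without and 0.0222 with the block) but 0.40 with block and GC offset (edgeR adjusted p = 0.273). Its transcript held 37.6% GC.

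TGFBR2, the type II receptor for TGF-beta, was at 28.2, 15.4 and 17.6 CPM and 15.5, 14.7 and 15.1 CPM, and the groups overlapped. The log2 fold change of -0.43 (SE 0.26) did not pass (edgeR adjusted p = 0.272, with the block 0.204) and was -0.34 with block and GC offset. ACVR1, a type I receptor for BMPs and activins, was lower on each day at 68.1, 85.8 and 92.3 CPM against 47.4, 44.6 and 77.1 CPM, and missed with the block (edgeR adjusted p = 0.0572). Its log2 fold change was -0.54, and -0.23 with block and GC offset. The log2 fold changes of the rest were -0.42 for the co-receptor TGFBR3, -0.04 for the activin receptor ACVR2B and 0.33 for ACVR1B, the type I activin receptor, none of which passed. With block and GC offset they were 0.07, 0.17 and 0.06. ACVR1B was the 1 tested receptor whose shNXN values lay above all shControl values.

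Of the 6 SMADs that carry the signal, 2 were lower with the block, SMAD2 of the TGF-beta branch and SMAD5 of the BMP branch, where 17% of all features were. SMAD2 was at 52.1, 63.0 and 64.2 CPM in shControl and 17.8, 16.9 and 43.9 CPM in shNXN cells, and the day 11 shNXN library stood above the other 2 of its group. Its log2 fold change was -1.19 (SE 0.38; edgeR adjusted p = 0.0920 without and 0.0338 with the block), and -0.41 with block and GC offset. SMAD5 had close to the same difference on each day, -1.33, -1.33 and -1.21 on the log2 scale. It was at 184, 142 and 244 CPM in shControl and 73.2, 56.4 and 106 CPM in shNXN cells, and its log2 fold change of -1.28 (SE 0.28; edgeR adjusted p = 0.0551 without and 0.0142 with the block) was -0.02 with block and GC offset.

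SMAD3, the partner of SMAD2 in the same branch, differed in direction. It was at 114, 117 and 131 CPM in shControl and 144, 144 and 141 CPM in shNXN cells, without overlap, and its log2 fold change of 0.24 (SE 0.12) did not pass (edgeR adjusted p = 0.193, with the block 0.124) and was 0.08 with block and GC offset. SMAD4, the common partner, was at 70.2, 58.8 and 74.2 CPM and 59.3, 53.3 and 63.1 CPM. Its log2 fold change was -0.21 (SE 0.15, edgeR adjusted p = 0.356), and 0.59 with block and GC offset. SMAD1 held 39.2% GC, as little as the members called lower, but had a log2 fold change of 0.0046, and 1.04 with block and GC offset (edgeR adjusted p = 0.0562), the largest among the members. SMAD9 was at -0.23, and at 0.28 with block and GC offset.

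**Figure D4:**
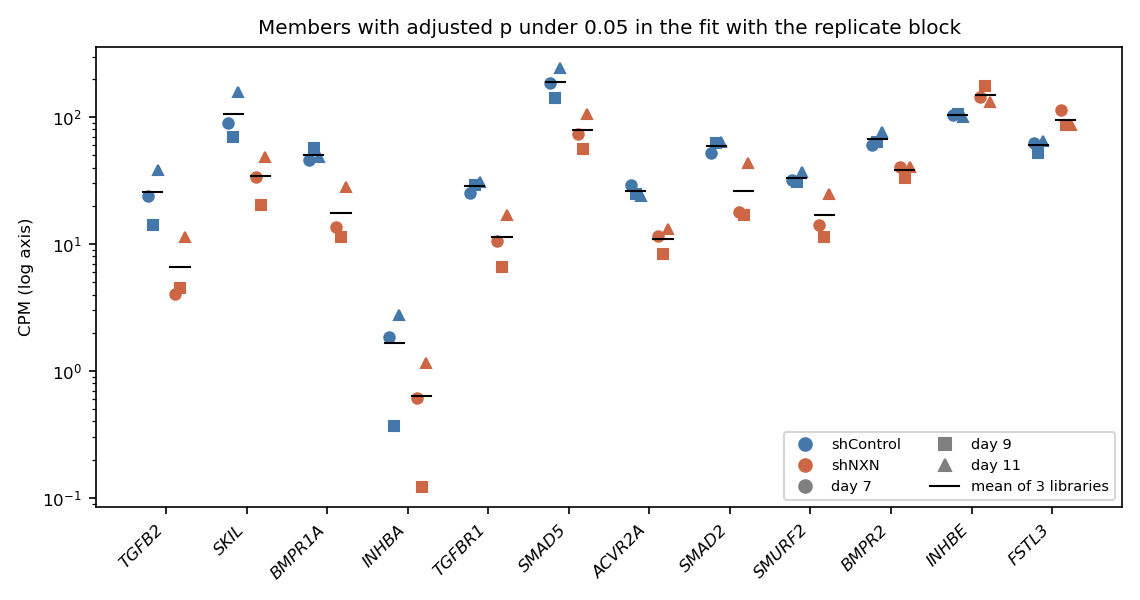
CPM on a log axis in each library for the 12 members with an adjusted p under 0.05 in the fit with the replicate block. Blue points are shControl and orange points shNXN, the marker gives the day, and the line is the mean of 3 libraries. The groups overlap for INHBA alone, and the day 11 shNXN triangle sits nearest the control mean for all but BMPR2 and FSTL3. That mean is over all days. Within days, the difference was not smallest in size on day 11 for TGFB2, INHBA, BMPR2 and SKIL.

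The 11 inhibitors split in direction. With the block SMURF2 and SKIL were lower and FSTL3 was higher (background 17% and 6.28%), and without a model 2 lay below and 5 above the shControl range (background 21.5% and 19%). The 5 above were SMURF1, SKI, TGIF2, BAMBI and FSTL3.

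SKIL (SnoN), a SMAD corepressor, was at 89.2, 69.2 and 159 CPM in shControl and 33.9, 20.5 and 48.1 CPM in shNXN cells. Its log2 fold change was -1.63 (SE 0.40; edgeR adjusted p = 0.0638 without and 0.0142 with the block), and -0.02 with block and GC offset. At 33.4% GC its transcript was the most AT-rich of the 10 called lower. Its relative SKI, at 59.95% GC, had a log2 fold change of 0.41 (edgeR adjusted p = 0.107, with the block 0.0602), and 0.06 with block and GC offset.

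The SMURF ubiquitin ligases, which target SMADs and receptors for degradation, were also on opposite sides of 0. SMURF2 was at 31.99, 30.9 and 36.9 CPM in shControl and 14.2, 11.3 and 24.9 CPM in shNXN cells, a log2 fold change of -0.98 (SE 0.30; edgeR adjusted p = 0.0866 without and 0.0302 with the block), and -0.03 with block and GC offset. SMURF1 was at 0.33 and did not pass (edgeR adjusted p = 0.0791 with the block), and was at 0.10 with block and GC offset. Their transcripts held 39.3% and 51.9% GC.

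FSTL3, a secreted protein that binds activins and myostatin, was at 62.7, 52.1 and 64.8 CPM in shControl and 113, 86.4 and 87.3 CPM in shNXN cells. It was higher on every day, by 0.85, 0.73 and 0.43, with a log2 fold change of 0.67 (SE 0.17; edgeR adjusted p = 0.0654 without and 0.0286 with the block). With block and GC offset it was 0.26 (edgeR adjusted p = 0.362). FST, the related activin antagonist follistatin, was less abundant per length (2.87 ± 0.998 against 36.4 ± 3.65 FPKM in shControl cells, SD, n = 3), at 5.97, 3.999 and 4.17 CPM and 11.01, 5.95 and 5.80 CPM. Its log2 fold change of 0.69 (SE 0.34) did not pass (edgeR adjusted p = 0.201, with the block 0.0674) and was 0.94 with block and GC offset.

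BAMBI, a decoy receptor that lacks the kinase domain, was at 51.9, 57.3 and 36.2 CPM in shControl and 72.8, 71.3 and 70.4 CPM in shNXN cells. Its groups did not overlap, and the log2 fold change of 0.56 (SE 0.19) missed the threshold (edgeR adjusted p = 0.107, with the block 0.0542) and was 0.39 with block and GC offset. TGIF2 and TGIF1, homeodomain corepressors of SMADs, had log2 fold changes of 0.33 and -0.04, and 0.10 and 0.76 with block and GC offset.

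SMAD7 and SMAD6, the inhibitory SMADs, are induced by the pathway. SMAD7 was at 15.5, 21.2 and 26.01 CPM in shControl and 33.7, 40.9 and 24.6 CPM in shNXN cells, above the control on days 7 and 9 and slightly below it on day 11. The log2 fold change was 0.66 (SE 0.27, edgeR adjusted p = 0.140, with the block 0.114), and 0.32 with block and GC offset. SMAD6 was at 0.38 (edgeR adjusted p = 0.247), and at 0.02 with block and GC offset.

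Of the targets, ID1, ID2 and ID3, inhibitors of basic helix-loop-helix factors and direct BMP targets, none passed with or without the block, nor did TGFBI, a matrix protein induced by TGF-beta. ID1 was at 62.3, 111 and 309 CPM in shControl and 203, 207 and 319.9 CPM in shNXN cells. Its level was higher in shNXN cells on days 7 and 9 and about equal on day 11, with a log2 fold change of 0.60 (SE 0.54; edgeR adjusted p = 0.455 without and 0.0903 with the block), and 0.53 with block and GC offset. Without a block it was 1.54 without the shControl library of day 11, and 0.21 without that of day 7, 0.39 without that of day 9 and 0.35 without the shNXN library of day 11. ID3 was at 34.5, 31.7 and 100.05 CPM and 72.6, 44.9 and 71.5 CPM, and ID2 at 149, 111 and 175 CPM and 205, 169 and 129 CPM. Both were above the control on days 7 and 9 and below it on day 11. TGFBI was at 551, 619 and 593 CPM and 632, 625 and 678 CPM, an even level on all days. The log2 fold changes of ID3, ID2 and TGFBI were 0.18, 0.21 and 0.13, and 0.02, -0.07 and -0.04 with block and GC offset.

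The day pattern of the targets was noted after the values were seen and has 1 library for each group and day, so it was not tested. The log2 difference between shNXN and shControl on days 7, 9 and 11 was 1.70, 0.89 and 0.05 for ID1, 1.07, 0.50 and -0.48 for ID3 and 1.11, 0.95 and -0.08 for SMAD7. Outside the 47 genes, the TGF-beta target JUNB had 1.58, 0.85 and -0.02. It was at 109, 86.998 and 201 CPM in shControl and 326, 157 and 198 CPM in shNXN cells. In total 5 of the 44 tested members (11.4%) were above the control on days 7 and 9 and below it on day 11, namely INHBB, GDF15, SMAD7, ID2 and ID3, where 5.6% of all features were. The median difference of all features was 0.00028, -0.0048 and 0.07 on the 3 days. These day differences were not corrected for GC content, which they followed over all features (Spearman rho 0.743, 0.676 and 0.726). The longest transcripts of ID1, ID3 and SMAD7 held 58.6%, 57.2% and 58.7% GC, where the median of all tested features was 48.4%. Features of like GC content were not compared.

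**Figure D5:**
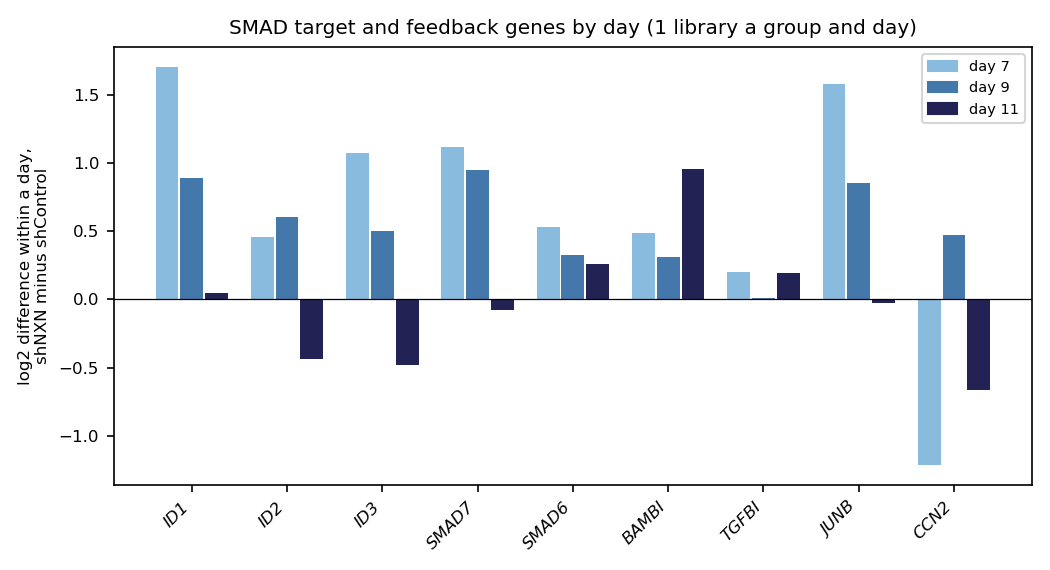
Log2 CPM of shNXN minus shControl within each day (light to dark for days 7, 9 and 11) for SMAD target and feedback genes, 1 library a group and day, no error. ID1, ID3, SMAD7 and JUNB are between 0.50 and 1.70 on days 7 and 9 and between -0.48 and 0.05 on day 11, while BAMBI is highest on day 11 and CCN2 changes sign between days 7 and 9.

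The promoters of these genes were read for the letters that SMAD complexes bind. RefSeq (GRCh38.p14) gave a start site for 43 of the 47 members. In the 250 bases before it, CAGAC, the short SMAD-binding element, was found on either strand in 15 members (34.9%, against 38% of 35116 promoters). The palindrome GTCTAGAC was in 1 member (2.33% against 0.182%), and GGCGCC, a GC-rich BMP response element, in 14 (32.6% against 16.4%). Members were read at 1 start site each, whereas the 35116 promoters can hold several of a gene. The promoters were not matched for GC content, so these shares are not like for like. CAGAC does not lie inside the other 2 motifs. The 4 sequences are 3 feedback inhibitors and 1 ID gene, shown because they hold such letters, with the matches in capitals (CAGAC as GTCTG where it lies on the other strand), 5′ to 3′ on the strand of the gene.
SMAD6 (chr15:66701986-66702235, + strand): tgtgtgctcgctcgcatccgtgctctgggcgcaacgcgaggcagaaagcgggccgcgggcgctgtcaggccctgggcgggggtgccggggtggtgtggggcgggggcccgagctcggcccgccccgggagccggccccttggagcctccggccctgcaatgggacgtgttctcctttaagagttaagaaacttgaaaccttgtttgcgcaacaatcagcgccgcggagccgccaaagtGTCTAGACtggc
SMAD7 (chr18:48950966-48951215, - strand): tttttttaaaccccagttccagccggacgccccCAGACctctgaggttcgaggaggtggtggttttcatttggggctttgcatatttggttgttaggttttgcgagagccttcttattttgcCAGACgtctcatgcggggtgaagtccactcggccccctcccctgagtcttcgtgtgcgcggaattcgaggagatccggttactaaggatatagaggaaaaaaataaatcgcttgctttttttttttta
BAMBI (chr10:28677271-28677520, + strand): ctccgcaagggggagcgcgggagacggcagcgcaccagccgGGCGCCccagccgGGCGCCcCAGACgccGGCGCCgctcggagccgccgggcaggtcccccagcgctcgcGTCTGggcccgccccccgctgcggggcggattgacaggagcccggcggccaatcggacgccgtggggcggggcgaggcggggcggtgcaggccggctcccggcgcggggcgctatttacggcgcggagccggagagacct
ID3 (chr1:23559502-23559751, - strand): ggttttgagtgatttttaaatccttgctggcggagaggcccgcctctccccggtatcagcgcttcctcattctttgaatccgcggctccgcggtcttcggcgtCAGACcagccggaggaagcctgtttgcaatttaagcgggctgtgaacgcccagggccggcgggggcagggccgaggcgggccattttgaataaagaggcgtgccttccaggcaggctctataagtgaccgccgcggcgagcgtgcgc
SMAD6 held the palindrome next to the start, SMAD7 held CAGAC at 2 places, BAMBI held CAGAC at 2 places and GGCGCC at 3, and ID3 held CAGAC at 1. ID1, the target with the largest difference on day 7, had none of the 3 in its 250 bases. A match is a description of the letters and does not show binding, and SMAD6, with the palindrome, had a difference of 0.53, 0.33 and 0.26 over the days.

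A wider list of the pathway, 95 genes in the table and not members, was read in the same fits. Of 64 tested, 0 passed in edgeR without the block (background 3.21% lower and 0.185% higher). With the block 15 were lower (23.4%, background 17%) and 2 higher (3.12%, background 6.28%). With block and GC offset 1 (background 0.924%) was called, FN1 (fibronectin), at 0.79 (edgeR adjusted p = 0.0473). That fit was not tested on simulated data. With the GC offset and no block 0 of the 64 were called, where 5 of all features were. The most significant with the block were TRIM33, a SMAD4-binding ubiquitin ligase, ITGAV and ITGB8, integrin subunits that activate latent TGF-beta, IPO7, which imports SMADs, BMPR1B, a BMP receptor, and MAP3K7 (TAK1).

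TRIM33 was at 131, 118 and 206 CPM in shControl and 53.3, 47.99 and 92.6 CPM in shNXN cells. ITGAV was at 295, 214 and 566 CPM and 145, 111 and 302 CPM, overlapping between groups but with log2 differences of -1.03, -0.94 and -0.91 within the days. Their log2 fold changes were -1.23 and -0.95 (edgeR adjusted p with the block 0.0142 for each), and -0.19 and 0.18 with block and GC offset. IPO7, BMPR1B, ITGB8 and MAP3K7 had log2 fold changes of -1.87, -1.50, -1.13 and -1.27, and -0.97, -0.41, 0.11 and -0.29 with block and GC offset. CCN2, a matricellular target, was at 998, 64.6 and 187 CPM and 432, 89.9 and 118 CPM, with the day 7 libraries highest in both groups. HAMP, hepcidin, was between 0.0613 and 0.322 CPM and was not tested.

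The deposited FPKM values, which divide by a transcript length, did not always move with the counts. The length implied by the ratio of counts, scaled to the library total alone, to FPKM differed between groups for some members. The cause was not tested. For SMAD2 it was 1.80 ± 0.247 kb in shControl and 1.18 ± 0.201 kb in shNXN cells (SD, n = 3). On the FPKM scale SMAD2 went from 33.8 ± 7.63 to 21.2 ± 8.24, a log2(FPKM + 1) difference of -0.69 where the counts gave -1.19. SKIL had implied lengths of 3.15 ± 0.883 and 1.84 ± 0.623 kb, and its log2(FPKM + 1) difference was -0.79 where the counts gave -1.63. SMAD4 was 0.16 on that scale and -0.21 in counts.

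Among the members called with the block, the 2 scales pointed apart on day 11 for BMPR1A and SMAD5 only. SMAD4, not called, was above shControl in FPKM and below it in CPM on every day. BMPR1A was at 10.5 FPKM in shNXN and 7.50 FPKM in shControl cells, and SMAD5 at 54.5 against 52.04 FPKM, although both were lower in CPM on that day. By limma on log2(FPKM + 1) 1 member passed, TGFB2 (log2 difference -1.97, adjusted p = 0.0454). ACVR2A, called in counts, was at -1.39 there (limma adjusted p = 0.0543).

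In these bulk libraries fewer cells that use a gene and less RNA per cell cannot be told apart. Of the 47 members, 21 overlap a gene on the opposite strand in GENCODE 29, among them TGFB1, SMAD5 (SMAD5-AS1), SMURF2 (CEP95) and ACVR2A (ORC4). The sources used here do not state whether counting used the strand, so reads of such pairs are not separable.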

How the data were processed

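Messenger RNA of 6 Hep3B libraries was sequenced, 1 for each group and day. The authors deposited an expected count (estimated, not always whole) for each gene and library, and the deposited FPKM table holds the same features scaled to transcript length and library size. The aligner, counting program and annotation are not given in the sources used here. Per the labels, the submitters' processing notes name the mouse builds GRCm38 and mm10, whereas the features carry human identifiers. There were 0 columns without a sample. Libraries were grouped by their labels.

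Tests of the rounded counts used edgeR 4.0.16 in R 4.3.3 (TMM factors, filterByExpr, quasi-likelihood test), with Benjamini-Hochberg adjustment over all 14071 tested features and a threshold of 0.05. The main fit had no block. The standard error was the log2 fold change divided by the root of F. CPM are TMM-scaled, and log2 CPM used a prior count of 2. Replicate numbers follow the days, so the labels pair the libraries: deviations from the group means correlated at 0.304, 0.309 and 0.451 for same-day pairs and at -0.368 to 0.148 for other pairs. The GC offset was a natural spline of 5 degrees of freedom on the GC content of the longest GENCODE 29 transcript, known for 90.5% of tested features. FPKM were tested with limma 3.58.1 on log2(FPKM + 1), a scale that understates changes of low genes. Libraries of a group differed by more than sampling noise (chi-square per feature 16.7 to 64.5). Simulated data were used to test edgeR without and with the block, its day test, its GC offset without a block, DESeq2 without a block, and limma. The fit with block and GC offset and the other alternatives were not tested in this way. Alternatives were DESeq2 1.42.0, other factors and filters, the block, the GC offset, limma and leaving out libraries. Promoters were read with Python 3.11.15.

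The members and lists were chosen with earlier results of these data known. Values in every library are given for members with an adjusted p under 0.05 in a fit with or without the block, 6 further members with the largest fold change at 1 CPM or more, and the core members TGFB1, TGFBR1, TGFBR2, SMAD2, SMAD3, SMAD4, SMAD7 and ID1. A result on 1 gene of the wider list is not reported here. Members outside this rule were named after their values were seen.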

Additional observations from a re-analysis of the deposited data

Results flagged for a closer look

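Of 29 named genes, 4 had a difference between shNXN and shControl that changed sign between days. Each day holds 1 library a group, so the difference between days was not tested. The log2 differences on days 7, 9 and 11 were 1.11, 0.95 and -0.079 for SMAD7, and 1.58, 0.85 and -0.023 for JUNB. TGFB1 had -0.12, 0.11 and 0.20, and CCN2 had -1.21, 0.48 and -0.66.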

How the results depend on the processing

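The count of members with an adjusted p under 0.05 moved with the fit. It was 1 in edgeR without a block (477 of all features), 12 with the replicate block (3272) and 12 in DESeq2 (3311). With library size only it was 4 (929), with RLE factors 4 (826) and with no filter 3 (818). With at least 10 counts in every library it was 2 (576). It was 0 with the GC offset (5 of all features), 0 with the replicate block and GC offset (130), 0 in limma on log2(FPKM + 0.1) (66) and 1 on log2(FPKM + 1) (287). Without both day 11 libraries it was 15 (4519), and in DESeq2 with the replicate block, added after seeing the data, 15 (4434). Leaving out each library in turn gave 0 to 13 members and 0 to 3706 features.

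By day, 0 members and 0 features passed in edgeR, 25 features passed with the GC offset, and DESeq2's likelihood ratio test, added after seeing the data, gave 10 members and 1378 features. Leaving out each library gave 0 to 12 members and 0 to 1595 features. The log2 fold change of NXN ranged from -1.90 to -1.67 with a library left out, with edgeR adjusted p values up to 0.225, and only without the shControl library of day 9 or the shNXN library of day 11 did it stay under the threshold.

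Some fold changes turned. With the GC offset, without and with the replicate block, BMPR2 was at 0.42 and 0.40, TGFB1 at -0.32 and -0.33, SMAD4 at 0.61 and 0.59, ITGAV at 0.14 and 0.18, and ITGB8 at 0.090 and 0.11. SMAD4 was 0.16 in limma with either pseudocount, and TGFB1 was -0.0043 without day 11. With a library left out, TGFB1 ranged from -0.24 to 0.37 and CCN2 from -2 to 0.79. The cause was not tested. With 3 libraries a group, the fit with the block had 2 residual degrees of freedom.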
